A study of Mus musculus with 8 samples.

Results

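The genes described here code for mitochondrial ribosomal proteins. They were taken as every gene whose only symbol in the platform annotation begins with Mrpl or Mrps followed by a digit, a choice that used names and no measured value. The array carried 70 such genes, of 13661 genes with a single symbol, on 87 oligonucleotide probes. All 70 matched a RefSeq mouse gene of assembly GRCm38.p6 through the Entrez identifier, with the same symbol. They lie on 17 chromosomes.

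The mitochondrial ribosome sits inside the mitochondrion and translates the few messenger RNAs of the mitochondrial genome, all of which code for core subunits of the respiratory chain and of ATP synthase. Its ribosomal RNAs come from the mitochondrial genome, whereas all of its proteins are coded in the nucleus, made on cytosolic ribosomes and imported. Some of these proteins descend from those of the bacterial ancestor, and others were added later and are particular to mitochondria. Heart muscle is rich in mitochondria, and its contraction depends on the oxidative phosphorylation that these ribosomes help to build.

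The series compared hearts with a permanent infarct with sham-operated hearts. The infarcted group held 4 C57Bl/6 mice aged 8 to 10 weeks, whose left coronary artery had a permanent tie on its descending branch. The sham control group held 4 mice of that strain and age in which a suture was placed under the artery and left untied, so both groups shared the anaesthesia and the opened chest. Each heart's RNA was labelled red and hybridised with a green-labelled pool of RNA from adult mouse tissues, 1 array per heart, with the dyes never swapped. The labels give no batch, and the time after surgery is not given in the sources used here. RNA of a heart mixes all of its cells, so fewer cells of a type and less RNA per cell cannot be told apart in any value below.

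Each value is the log2 of a spot's signal relative to the median signal of its printing block, on 1 channel. It is taken here as the heart channel, which the table does not settle, since the pool also held heart RNA. A value of 0 is the median spot, and a value of 3 is a signal 8 times as bright. Different oligonucleotides hybridise with different strength, so the values order samples for a gene and not genes for a sample. A difference is the mean of the infarcted arrays minus the mean of the sham arrays on this log2 scale, with its standard error (SE) from limma, a linear model with moderated variances fitted to all 18044 features that had at least 3 values in each group. A call is a Benjamini-Hochberg adjusted p under 0.05 over all of those features.

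Arrays gave values for between 21916 and 23655 of the 33600 spots in the infarcted group and between 19704 and 24819 in the sham group. The brightest 1% of spots began at 5.05 to 5.24 on the infarcted arrays and at 5.65 to 6.31 on the sham arrays, so the bright end of the scale was lower on every infarcted array. Over the 13 heart muscle markers on the array, the infarcted arrays gave 45 of 52 possible values and the sham arrays 25 of 52. Of the 13, 8 lacked values on too many sham arrays to be tested, and each measured value of those 8, where there was one, was at 4.96 or above. The 5 tested markers, Mybpc3, Ttn, Ryr2, Pln and Nppa, had array medians of 4.0 to 4.69 in infarcted hearts and 4.22 to 4.97 in sham hearts, with a median difference of 0.12. Of 9 macrophage markers tested, 8 had a positive difference, 5 an unadjusted p under 0.05 from limma and 0 were called, with array medians of 0.53 to 1.38 in infarcted hearts and -0.07 to 0.67 in sham hearts. A further macrophage marker, Fcgr1, was not tested. It had -0.32, -1.02 and 0.35 on sham replicates 1, 3 and 4 and no value on any infarcted array. The median difference was -0.05 over 9 fibroblast markers, -0.19 over 8 endothelial markers, of which Ramp2 was called lower, 0.06 over 6 smooth muscle markers, 0.02 over 4 lymphocyte markers, 0.04 over 5 erythroid markers and 0.23 over 4 adipocyte markers. The fibroblast markers had 6 differences below 0 and 3 above it, from -1.27 ± 0.64 for Col1a1 to 1.76 ± 0.54 for Postn. An unadjusted p under 0.05 from limma came from 2 of them. Among the erythroid markers, the haemoglobin genes Hba-a1 and Hbb-bt had separate groups, with differences of -1.78 ± 0.33 and -1.61 ± 0.45. Their adjusted p from limma was 0.0586 and 0.179. With quantile normalisation between arrays the 2 differences were -1.10 and -0.76, with adjusted p from limma of 0.311 and 0.61. The other 3 erythroid markers, Alas2, Slc4a1 and Epb42, had differences of 0.23, 0.40 and 0.04 with overlapping groups. Groups were also separate for Ramp2 and 1 fibroblast marker, both lower, and for 3 macrophage and 2 adipocyte markers, all higher. Over all features, 6.27% were separate and lower and 2.62% separate and higher. The part of these cells in the values below was not tested.

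The 150 bases before an annotated transcription start are shown for 4 of the genes, since promoters of nuclear genes for mitochondrial proteins are known for sites of the factors NRF1, ETS and YY1. They are Mrpl2, the 1 gene that was called, Mrpl12 and Mrps21, whose differences moved with the normalisation, and Mrpl36, which had separate groups under the deposited scaling. The sequences are from RefSeq, assembly GRCm38.p6, at chr17:46646071-46646220 on the plus strand for Mrpl2, chr11:120484487-120484636 on the plus strand for Mrpl12, chr3:95871515-95871664 on the minus strand for Mrps21 and chr13:73330859-73331008 on the plus strand for Mrpl36. Capitals mark a motif match on either strand.
Mrpl2: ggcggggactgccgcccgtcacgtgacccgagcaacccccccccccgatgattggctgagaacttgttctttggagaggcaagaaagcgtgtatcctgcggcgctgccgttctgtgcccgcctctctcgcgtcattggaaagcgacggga
Mrpl12: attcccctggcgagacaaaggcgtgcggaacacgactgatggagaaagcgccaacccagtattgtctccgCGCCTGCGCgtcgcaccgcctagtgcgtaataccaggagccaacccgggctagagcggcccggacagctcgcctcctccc
Mrps21: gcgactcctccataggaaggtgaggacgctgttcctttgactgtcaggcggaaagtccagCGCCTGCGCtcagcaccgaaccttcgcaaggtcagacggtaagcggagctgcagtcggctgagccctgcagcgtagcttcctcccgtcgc
Mrpl36: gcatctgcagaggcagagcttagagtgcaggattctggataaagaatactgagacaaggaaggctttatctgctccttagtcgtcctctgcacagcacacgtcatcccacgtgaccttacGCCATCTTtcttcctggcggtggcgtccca
The Mrpl2 stretch lies before the first of its 3 starts in the table, and none of the 3 motifs was found in it. Mrpl12 and Mrps21 each hold the same NRF1 match, and Mrpl36 holds a YY1 match read on the opposite strand. The Mrpl36 stretch lies inside the annotated span of its gene, which runs from 73328503 to 73332178. The end of the Mrpl2 stretch also lies inside the span of Mrpl2, which begins at 46646172.

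Motifs were searched on both strands in the 250 bases before each start, with overlapping matches of different motifs each counted, for the 62 genes of the family that the RefSeq promoter table holds. The NRF1 motif, CGCNTGCGC, was present in 12 of these 62 genes (19.4%) and in 1584 of all 27025 genes of the table (5.86%). The ETS motif, CCGGAAG, was present in 15 genes (24.2%), against 7.83% of all genes. The YY1 motif, AAGATGGC, was present in 4 genes (6.45%), against 1.83% of all genes. These shares describe letters in a window and not bound sites. Other genes also moved with the normalisation or had separate groups. Among them, Mrpl14, Mrps24, Mrps36, Mrpl21, Mrpl23 and Mrpl28 held no match to these motifs, and Mrpl30, Mrpl34 and Mrps12 held a match. A link between a motif and the difference of a gene was not tested.

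Of the 70 genes, 67 had enough values to be tested, and 66 of those had a value on all 8 arrays. As spots on the slide, only Mrpl57 had a mean below the median spot, at -1.74. The other 66 tested genes lay above it, up to 4.62, with a median of 2.22, against a median of 0.17 over all features. No probe of the family came near saturation, with raw signals between 65 and 19433. Mrpl39, a large subunit protein, gave no value on any array. Mrpl42 had a value of 0.71 on infarcted replicate 3 alone, against 2.73, 1.44 and 1.56 on sham replicates 1, 3 and 4. Mrps14 had values of -2.57, -2.28 and -2.35 on infarcted replicates 2, 3 and 4, against -2.24 and -1.82 on sham replicates 2 and 3. These 3 genes were not tested.

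Expression of 1 of the 67 tested genes was lower in infarcted hearts, and of 0 higher. The called gene was Mrpl2. That is 1.49% of the family called lower, against 0.493% of all features called lower and 0.0554% called higher. A single call among 67 genes is too few to set the family apart from that background. Unadjusted p-values under 0.05 from limma came from 6 genes (8.96%), against 12.3% of all features. These were Mrpl2, Mrpl23, Mrpl36, Mrps12, Mrps21 and Mrps28, all with a negative difference. The within-group standard deviation (SD) had a median over genes of 0.24 in infarcted hearts and 0.29 in sham hearts, the scale against which the differences below are to be read.

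**Figure D1:**
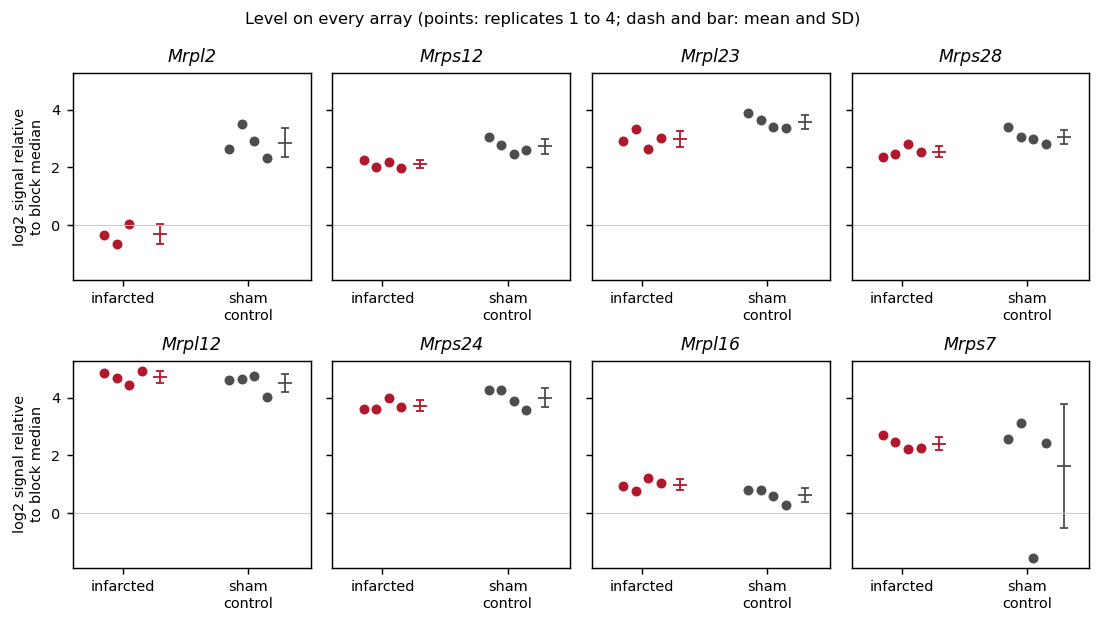
Level of 8 mitochondrial ribosomal protein genes on each array, in log2 signal relative to the block median, with infarcted hearts left of sham hearts; points are replicates, and the dash and bar are the mean and SD. Mrpl2 lies between -0.67 and 0.03 in infarcted hearts and between 2.34 and 3.51 in sham hearts, the other genes lie close together in both groups, and 1 sham heart stands apart at -1.57 for Mrps7.

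Mrpl2 codes for the large subunit protein uL2m, which lies near the peptidyl transferase centre, where peptide bonds are made. The gene (Entrez 27398) spans positions 46646172 to 46650132 of chromosome 17 in GRCm38.p6. Its single probe gave -0.33, -0.67 and 0.03 in infarcted replicates 1 to 3 and no value in infarcted replicate 4, against 2.65, 3.51, 2.92 and 2.34 in the 4 sham hearts. The highest infarcted value was 2.32 below the lowest sham value. The means were -0.33 ± 0.35 in infarcted hearts (SD, n = 3) and 2.85 ± 0.50 in sham hearts (SD, n = 4). Mrpl2 therefore fell by 3.18 on the log2 scale, with an SE of 0.33 and a 95% interval of -3.93 to -2.43 for the difference, and its adjusted p from limma was 0.01. As a fold, the signal was 9.06 times lower, with an interval of 5.4 to 15.2.

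The drop was also large in the raw signals of the spot, which were 420, 329 and 745 on the infarcted arrays and 3143, 3849, 3321 and 2632 on the sham arrays. Among all 18044 features, the Mrpl2 difference was the 10th lowest and its p-value the 9th smallest. The 14 tested spots within 10 rows of it in the table had differences of -1.65 to 0.72, with a median of -0.18, and none of them was called. In the whole printing block, 2 of 434 tested spots were called and the median difference was -0.05. With quantile normalisation between arrays the difference was -3.05 ± 0.28 (SE), with an adjusted p from limma of 0.00668. Mrpl2 was again the only gene of the family called, where 0.15% of all features were called lower and 0.0277% higher.

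The call rests on 3 infarcted values of 1 probe. Without infarcted replicate 1, 2 or 3, only 2 infarcted values were left, and the difference was -3.18, -3.01 and -3.36, with adjusted p from limma of 0.0577, 0.0576 and 0.0568. Without each sham array in turn, all 4 differences kept the call. With the replicate number as a block in the fit, the difference was -3.35, and its adjusted p from limma was 0.136. In that fit 1 of 17821 features was called.

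Over the family, small negative differences were more common than positive ones under the deposited scaling. The difference was below 0 for 52 of 67 genes (77.6%), against 57.5% of all features, and its median was -0.14, against -0.08 over all features. Apart from Mrpl2, differences lay between -0.75 and 0.77, and 58 of 67 genes were within 0.5 of 0 in log2, which is a factor of 1.41. The 95% interval of 51 genes lay wholly within 1 log2 unit of 0, and that of 6 genes left out 0. With quantile normalisation the balance turned round, with 28 of 67 differences below 0 (41.8%), against 49.8% of all features, and a median of 0.07, against 0.00.

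**Figure D2:**
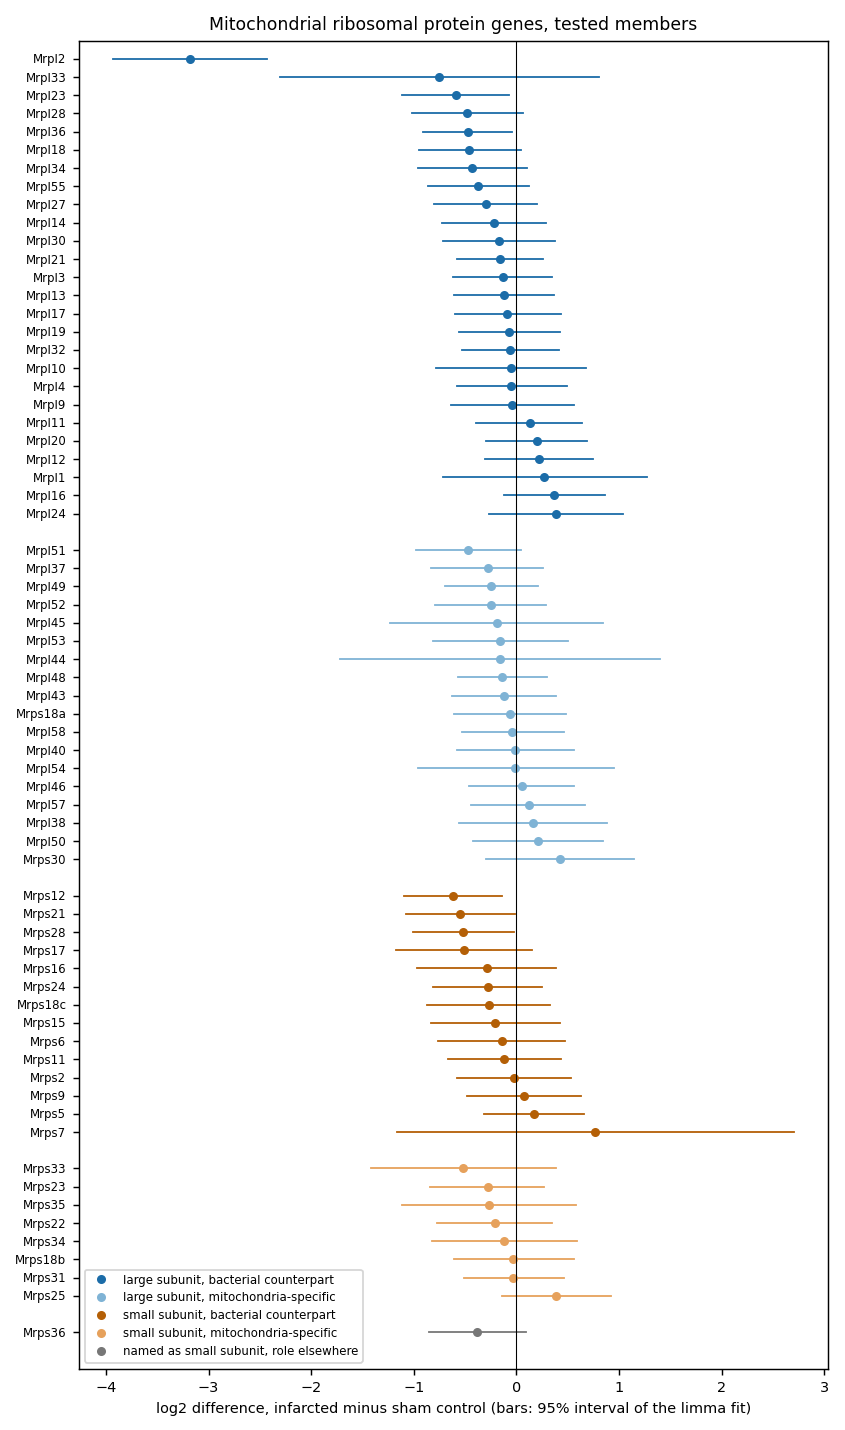
Difference in log2 signal, infarcted minus sham, for each of the 67 tested genes, as points with their 95% interval from limma and coloured by subunit and origin. Mrpl2 stands apart at -3.18, and the intervals of most other genes include 0, with estimates between -0.75 and 0.77.

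The 4 infarcted values lay below all sham values for 8 of 67 genes (11.9%, with Mrpl2 counted on its 3 values), against 6.27% of all features, and above them for 0 genes, against 2.62%. The 8 genes were Mrpl2, Mrpl21, Mrpl23, Mrpl28, Mrpl34, Mrpl36, Mrps12 and Mrps28, with Mrpl21 separate only as the mean of its probes. After quantile normalisation, Mrpl2 alone remained separate and lower, where 3.59% of all features were, and Mrpl12 was separate and higher, where 3.56% were.

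The large subunit proteins with a bacterial counterpart form the ribosomal core around the peptidyl transferase centre and the exit tunnel. All 26 of their genes were tested, with 1 called lower, 0 called higher, 20 differences below 0 and a median of -0.13. Their array medians were 2.27 to 2.49 in infarcted hearts and 2.58 to 2.74 in sham hearts, which do not overlap. Those of all features, whose median level was 0.17, were 0.14 to 0.28 and 0.04 to 0.42, which overlap. Array medians of features as bright as the group were not compared. The median level of the group was 2.47, and all features at levels of 2 to 3 had a median difference of -0.12. After quantile normalisation the median difference of the group was 0.08.

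Mrpl23, whose product in bacteria lies at the mouth of the exit tunnel, had 2.93, 3.34, 2.64 and 3.03 in infarcted hearts, against 3.89, 3.65, 3.41 and 3.37 in sham hearts. The groups were narrowly separate, and the difference was -0.59 ± 0.24 (SE), with an adjusted p from limma of 0.34. Mrpl36, a small zinc-binding protein of the large subunit, had 2.15, 2.24, 2.43 and 2.32 in infarcted hearts, against 2.63, 2.77, 2.93 and 2.69 in sham hearts. Its arrays fell in 2 tight clusters by group, but the difference was small, at -0.47 ± 0.20 (adjusted p = 0.361 from limma). Mrpl21 was tighter still as the mean of 2 probes, with 2.37, 2.35, 2.33 and 2.34 in infarcted hearts, against 2.47, 2.63, 2.45 and 2.48 in sham hearts. Its groups were separate at a difference of only -0.16 ± 0.19 (adjusted p = 0.796 from limma). Neither probe alone had separate groups. One read 2.28 to 2.47 in infarcted hearts and 2.41 to 2.75 in sham hearts, and the other 2.21 to 2.47 and 2.36 to 2.55. A further probe of Mrpl21 gave no value. Mrpl28 and Mrpl34, whose groups were also separate, had differences of -0.48 ± 0.24 and -0.43 ± 0.24.

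Mrpl12 codes for the stalk protein bL12m, which recruits translation factors. It had 4.86, 4.68, 4.45 and 4.92 in infarcted hearts, against 4.61, 4.64, 4.74 and 4.03 in sham hearts. The groups overlapped, and the difference was 0.22 ± 0.24 (SE), with a 95% interval of -0.31 to 0.75. With quantile normalisation the difference was 0.91 ± 0.20, with an adjusted p from limma of 0.167. Mrpl30 had 4.03, 3.91, 4.12 and 4.18 in infarcted hearts, against 3.99, 4.83, 4.12 and 3.99 in sham hearts. Its sham replicate 2 alone was high, and the difference was -0.17 ± 0.25. Mrpl14, at the interface between the subunits, had 3.55, 3.45, 3.43 and 3.65 in infarcted hearts, against 3.59, 4.12, 3.89 and 3.37 in sham hearts, with overlapping groups and a difference of -0.22 ± 0.23.

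Of the large subunit genes with the highest differences, Mrpl24 had 1.13, 0.36, 1.06 and 0.82 in infarcted hearts, against 0.82, 0.00, 0.91 and 0.10 in sham hearts. Mrpl16, whose product lies near the peptidyl transferase centre, had 0.93, 0.76, 1.21 and 1.05 in infarcted hearts, against 0.80, 0.79, 0.60 and 0.28 in sham hearts. Both sets of groups overlapped. The differences were 0.39 ± 0.29 for Mrpl24 and 0.37 ± 0.22 for Mrpl16, with adjusted p from limma of 0.659 and 0.557.

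The large subunit proteins particular to mitochondria had 18 of 20 genes tested, with 0 called, 0 at an unadjusted p under 0.05, 13 differences below 0 and a median of -0.09 (0.09 after quantile normalisation). Their array medians were 1.69 to 2.20 in infarcted hearts and 1.64 to 2.28 in sham hearts. Mrpl52 had 3.00, 2.62, 3.25 and 3.21 in infarcted hearts, against 3.19, 3.21, 3.66 and 3.02 in sham hearts. Mrpl54 had 2.01, 2.80, 3.16 and 3.14 in infarcted hearts, against 1.55, 3.29, 3.29 and 3.00 in sham hearts. In Mrpl54 replicate 1 was the lowest in both groups, and the difference was -0.01 ± 0.43. Mrps18a and Mrps30 belong to this group too, since their products sit in the large subunit in spite of their symbols. Mrps18a had 3.04, 2.72, 2.75 and 2.61 in infarcted hearts, against 3.14, 2.90, 3.02 and 2.32 in sham hearts. Mrps30 had 0.99, 0.69, 1.49 and 1.68 in infarcted hearts, against 1.24, 0.31, 1.25 and 0.36 in sham hearts. All 4 genes had overlapping groups, with differences of -0.25 ± 0.24 for Mrpl52, -0.06 ± 0.24 for Mrps18a and 0.42 ± 0.33 for Mrps30. The value for Mrps30 is the mean of 2 probes, with differences of 0.79 ± 0.38 for the dimmer and 0.06 ± 0.32 for the brighter.

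The small subunit proteins with a bacterial counterpart build the body and head that hold the messenger RNA and its decoding centre. Of 15 genes 14 were tested, with 0 called, 3 at an unadjusted p under 0.05, 11 differences below 0 and a median of -0.24 (-0.03 after quantile normalisation). Their array medians were 2.22 to 2.30 in infarcted hearts and 2.21 to 2.79 in sham hearts. Mrps12, a protein of the decoding centre, had 2.26, 2.03, 2.17 and 1.97 in infarcted hearts, against 3.07, 2.76, 2.48 and 2.59 in sham hearts. Every infarcted heart was below every sham heart, with means of 2.11 ± 0.13 in infarcted hearts and 2.72 ± 0.26 in sham hearts (SD, n = 4 each). The difference of -0.62 ± 0.22 (SE) had a 95% interval of -1.10 to -0.14 and did not pass over all features, with an adjusted p from limma of 0.274. Mrps28 had 2.35, 2.48, 2.82 and 2.55 in infarcted hearts, against 3.40, 3.07, 2.98 and 2.82 in sham hearts. The highest infarcted value and the lowest sham value of Mrps28 were both 2.82 at this rounding, and the difference was -0.52 ± 0.22 (adjusted p = 0.381 from limma).

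Mrps21, of the same subunit, had 3.67, 3.64, 4.31 and 3.72 in infarcted hearts, against 4.65, 4.48, 4.10 and 4.30 in sham hearts. Infarcted replicate 3 was in the range of the sham hearts, and the other 3 were below it. Its difference was -0.55 ± 0.24 under the deposited scaling and -0.02 after quantile normalisation. Mrps17 had 2.03, 2.02, 2.17 and 0.91 in infarcted hearts, against 2.41, 2.36, 2.13 and 2.29 in sham hearts. Infarcted replicate 4 was far below the rest, and the difference was -0.51 ± 0.30. Mrps24 had 3.61, 3.59, 4.0 and 3.67 in infarcted hearts, against 4.28, 4.25, 3.90 and 3.56 in sham hearts, with overlap and a difference of -0.28 ± 0.24 (0.19 after quantile normalisation).

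Mrps7, which binds the head of the small subunit, had the highest difference of the family. It had 2.72, 2.45, 2.21 and 2.25 in infarcted hearts, against 2.58, 3.11, -1.57 and 2.43 in sham hearts. The sham value of replicate 3 stood alone. The difference was 0.77 ± 0.87 (SE), with a 95% interval of -1.16 to 2.7 and an adjusted p from limma of 0.787, and it was -0.30 without that array.

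The small subunit proteins particular to mitochondria had all 8 genes tested, with 0 called, 0 at an unadjusted p under 0.05, 7 differences below 0 and a median of -0.16 (0.04 after quantile normalisation). Their array medians were 1.66 to 1.86 in infarcted hearts and 1.41 to 2.41 in sham hearts. Mrps23 had 2.88, 2.87, 3.5 and 3.29 in infarcted hearts, against 3.71, 3.63, 3.16 and 3.18 in sham hearts. Mrps34 had 2.24, 2.54, 2.27 and 2.73 in infarcted hearts, against 2.7, 2.98, 2.92 and 1.66 in sham hearts. Mrps35 had 2.14, 1.68, 2.85 and 1.67 in infarcted hearts, against 2.86, 2.90, 2.11 and 1.55 in sham hearts. The groups overlapped in all 3 genes, with differences of -0.28 ± 0.25, -0.12 ± 0.32 and -0.27 ± 0.38. Mrps25 was the 1 gene of this group with a positive difference, with 0.24, 0.04, 0.77 and 0.57 in infarcted hearts, against 0.19, 0.13, 0.01 and -0.26 in sham hearts. The difference was 0.39 ± 0.24 (adjusted p = 0.561 from limma).

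Mrps36 carries a ribosomal symbol, but its product is now known as a component of the oxoglutarate dehydrogenase complex of the citric acid cycle. It had 3.48, 3.74, 3.94 and 3.74 in infarcted hearts, against 4.0, 4.31, 4.19 and 3.92 in sham hearts. The groups overlapped only through infarcted replicate 3 and sham replicate 4, and its 2 probes gave -0.39 and -0.36. The difference of the gene was -0.38 ± 0.21 (adjusted p = 0.521 from limma), and 0.11 after quantile normalisation.

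For some genes with several probes, the value depended on which probe was present. Mrpl33 had 0.89, 0.94, 1.18 and 1.62 in infarcted hearts, against 1.03, 0.80, 1.39 and 4.40 in sham hearts, as the mean of its 2 probes. The probes differed greatly in brightness. The bright probe read 4.05, 4.28, 4.48 and 4.77 in infarcted hearts, against 4.51, 4.19, 4.77 and 4.40 in sham hearts. The dim probe read -2.28, -2.40, -2.13 and -1.53 in infarcted hearts, against -2.44, -2.59 and -1.99 in sham replicates 1 to 3. The dim probe gave no value in sham replicate 4, so the gene's value there was that of the bright probe alone. The gene's difference of -0.75 ± 0.69, the lowest after Mrpl2, compares with -0.07 ± 0.24 for the bright probe and 0.26 ± 0.29 for the dim probe.

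Mrps33 and Mrpl44 were averaged in the same way. Mrps33 had 1.45, 1.20, 1.63 and 1.65 in infarcted hearts, against 1.59, 3.31, 1.85 and 1.26 in sham hearts, and its dim probe gave no value in sham replicate 2. The difference was -0.52 ± 0.41 for the gene, and -0.41 ± 0.23 and 0.28 ± 0.29 for its probes. Mrpl44, an RNase III-like protein of the large subunit, had 2.60, 0.06, -0.16 and 0.19 in infarcted hearts, against 0.42, 2.53, 0.08 and 0.29 in sham hearts. The difference was -0.16 ± 0.70 for Mrpl44, and -0.04 ± 0.22 and -0.39 ± 0.37 for its probes. Mrpl1 was averaged over 3 probes, and its dimmest gave values on replicate 1 of each group alone, -2.49 infarcted and -2.40 sham. The gene was at 0.39 and 0.50 on those arrays and at 1.30 to 2.22 on the others. Its difference was 0.27 ± 0.45, and 0.11 ± 0.29 and 0.44 ± 0.23 for its tested probes.

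Probes also differed in sign for 5 further genes. Mrpl38 averaged 2.06, 1.85, 1.99 and 1.40 over its probes in infarcted hearts, against 1.67, 2.33, 1.81 and 0.85 in sham hearts, and its probes had differences of 0.38 ± 0.43 and -0.05 ± 0.34. Mrpl4 averaged 1.15, 1.07, 1.34 and 0.98 in infarcted hearts, against 1.07, 1.22, 1.65 and 0.78 in sham hearts, and its probes had 0.25 ± 0.29 and -0.34 ± 0.22. In both genes sham replicate 4 was the lowest of the 8 arrays. Mrps18b averaged 1.73, 1.76, 1.41 and 1.57 in infarcted hearts, against 1.95, 1.88, 1.77 and 0.98 in sham hearts, and its probes had 0.14 ± 0.31 and -0.19 ± 0.23. Mrps22 averaged 0.99, 1.00, 1.26 and 0.81 in infarcted hearts, against 1.76, 1.25, 1.07 and 0.84 in sham hearts, and its probes had -0.43 ± 0.28 and 0.00 ± 0.23. The groups overlapped in both. Mrpl58, a peptidyl-tRNA hydrolase that rescues stalled ribosomes, averaged 1.87, 2.02, 2.42 and 2.01 in infarcted hearts, against 1.97, 2.21, 2.39 and 1.90 in sham hearts, and its 3 probes had -0.10, 0.02 and -0.03. Each of these probe differences was smaller than 2 of its own standard errors.

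The place of a spot on the slide also moved with its value on 2 arrays. In the last 4 printing blocks, 45 to 48, the spots of the last 100 positions had a median of -0.96 on infarcted replicate 1 and -1.45 on sham replicate 1, after subtracting each spot's median over the 8 arrays. On the other 6 arrays the same spots had medians of -0.07 to 0.28. In the other blocks the medians there were 0.01 on infarcted replicate 1 and 0.17 on sham replicate 1. These 4 blocks hold 14 probes of 13 genes of the family. Mrpl45, a large subunit protein that anchors the ribosome to the inner membrane, lies at position 614 of block 46. It had 0.78, 1.61, 2.15 and 1.60 in infarcted hearts, against 0.41, 2.61, 2.02 and 1.87 in sham hearts, with replicate 1 lowest in both groups. Mrpl54, described above, lies at position 603 of block 47. Once the running mean over 101 neighbouring spots was taken away, its difference was -0.07 ± 0.20 in place of -0.01 ± 0.43. With that trend removed, Mrpl2, Mrpl18 and Mrpl36 had separate groups and were lower, where 5.86% of all features were, and 0 genes were separate and higher, where 5.12% were.

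**Figure D3:**
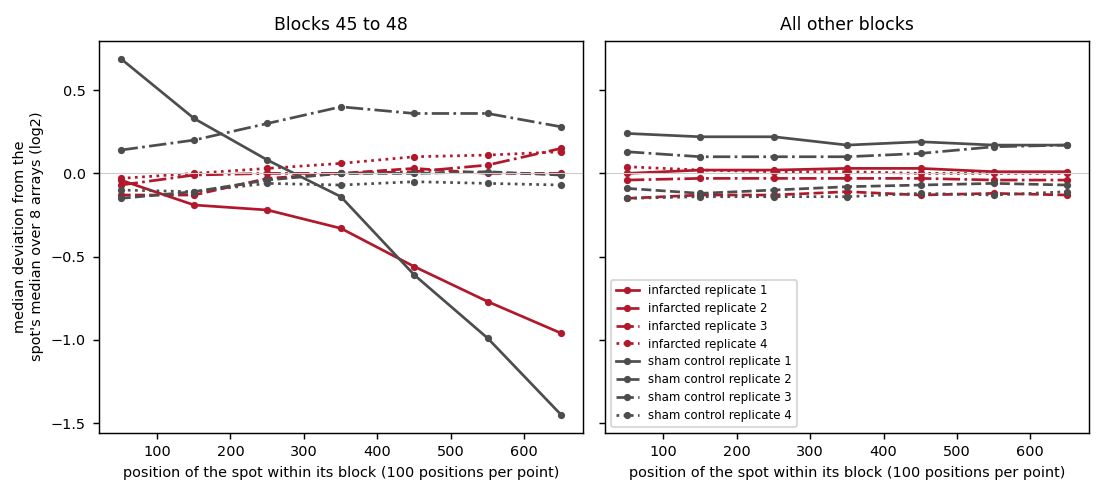
Median deviation in log2 signal from each spot's median over the 8 arrays, by position within the last 4 printing blocks at left and within all others at right, with a line per array. Infarcted replicate 1 and sham replicate 1 go down to -0.96 and -1.45 at the end of these blocks, and the other 6 arrays stay between -0.07 and 0.28 there.

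The size of a difference moved with the brightness of the spot, in all features as in the family. Among all features the median difference was -0.02 at mean levels of 0 to 1, -0.12 at 2 to 3, -0.30 at 3 to 4, -0.62 at 4 to 5 and -0.91 above 5. The corresponding medians of the family were -0.02 over 7 genes, -0.14 over 25, -0.28 over 11 and -0.17 over 3, with 0 genes above 5. At 1 to 2, the medians were -0.04 for all features and -0.05 for 20 genes of the family. Of the 67 genes, 36 lay below the median of all features at their own level. Mrpl12 lay 0.84 above it and Mrpl2 3.14 below it. After quantile normalisation the medians of all features lay between -0.08 and 0.07 at every level.

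**Figure D4:**
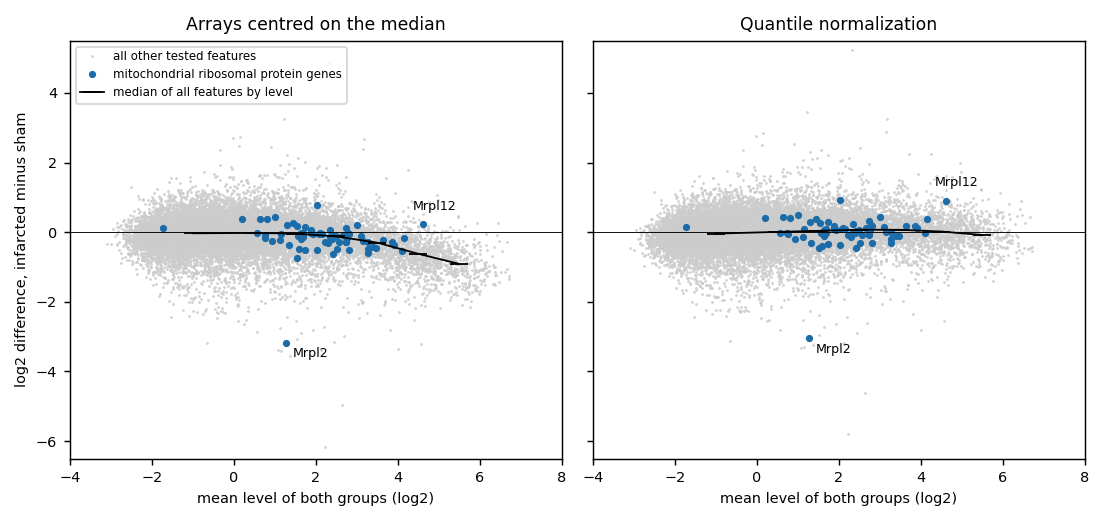
Difference in log2 signal, infarcted minus sham, against the mean level of each feature, with arrays centred on the median at left and after quantile normalisation at right; grey points are features, blue points the mitochondrial ribosomal protein genes, and the line is the median of all features. In the left panel the median of all features goes down to -0.62 at levels of 4 to 5 and to -0.91 above 5. The family follows the medians of all features up to a level of 4, with Mrpl2 far below.

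The rest of the mitochondrial translation machinery gave 0 calls by limma. Unadjusted p-values under 0.05 came from 1 of 3 genes for ribosome proteins or ribosome-bound proteins with other names, 0 of 15 assembly genes, 3 of 11 translation factors, 0 of 12 genes of tRNA charging, 1 of 13 genes of DNA upkeep and transcription and 0 of 11 regulators. The ribosomal proteins Chchd1 and Dap3 and the ribosome-bound insertase Oxa1l all had a negative difference, with a median of -0.55 over the 3 (-0.25 after quantile normalisation). Chchd1, of the small subunit, had 2.87, 2.92, 3.17 and 3.22 in infarcted hearts, against 3.48, 3.79, 3.58 and 3.55 in sham hearts. Its groups did not overlap, where 6.27% of all features were separate and lower. Its difference was -0.55 ± 0.20 (adjusted p = 0.298 from limma), and -0.25 after quantile normalisation (adjusted p = 0.729 from limma). Dap3, the GTP-binding protein of the small subunit, had -0.30 ± 0.26, and Oxa1l, which takes up new chains at the inner membrane, had -0.71 ± 0.65. Oxa1l was at 3.09 on sham replicate 1 and at -0.42 to 0.94 on the other sham arrays. Of 15 assembly and ribosomal RNA genes tested, 8 differences were below 0, with a median of -0.05. The smallest p-values were those of Ybey, an rRNA-processing endoribonuclease, at -0.47 ± 0.22, and of Tfb1m, which methylates the small ribosomal RNA, at 0.46 ± 0.24, with adjusted p from limma of 0.417 and 0.486.

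Of 11 translation factors tested, 6 differences were below 0, with a median of -0.06. Mtif2, the initiation factor that brings the first tRNA to the small subunit, had 1.06, 1.25, 1.41 and 0.97 in infarcted hearts, against 0.30, 0.46, 0.48 and 0.05 in sham hearts. Every infarcted heart was above every sham heart. The difference was 0.85 ± 0.21 (SE), or 0.90 after quantile normalisation, and its adjusted p from limma was 0.123. Mrrf, the ribosome recycling factor, had -0.56 ± 0.24 (adjusted p = 0.371 from limma).

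Of 12 genes tested for aminoacyl-tRNA synthetases and for the glutamyl-tRNA amidotransferase (Gatb, Gatc and Qrsl1), 10 differences were below 0, with a median of -0.17, and the smallest p-values belonged to Pars2 and Gatc, both at -0.30. Of 13 genes of mitochondrial DNA upkeep and transcription, 7 were below 0, with a median of -0.12. Trmt10c, a subunit of mitochondrial RNase P, had 0.54 ± 0.20 with separate groups, and Polrmt, the mitochondrial RNA polymerase, had -0.59 ± 0.28. Of 11 nuclear regulators of mitochondrial genes, 6 were below 0, with a median of -0.09. Esrrg, an oestrogen-related receptor, had 0.74 ± 0.43, and Myc had 0.43 ± 0.32. The adjusted p from limma was 0.313 for Trmt10c and higher for the other 5 genes of these lists.

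Nuclear-coded subunits of complexes I, III, IV and V assemble with the proteins that mitochondrial ribosomes make. Of 27 such genes tested, 3 were called lower and 0 higher, where 0.493% of all features were called lower and 0.0554% higher. Differences below 0 came from 26 genes, against 57.5% of all features, and the median was -0.75. The called genes were Cox7a2 and Cox6b1, of cytochrome c oxidase, at -1.57 ± 0.24 and -1.29 ± 0.21, and Uqcrb, of complex III, at -1.15 ± 0.19. Their adjusted p from limma was 0.0298, 0.0337 and 0.0375. The median level of this list was 5.41, against 2.22 for the ribosomal protein genes, and after quantile normalisation its median difference was 0.05 and 0 genes were called. All features at levels of 4 to 5 had a median difference of -0.62, and those above 5 had -0.91. Of the 27 genes, 12 lay below the median of all features at their own level. Cox5a, another subunit of cytochrome c oxidase, had the lowest difference of the list, with 0.39, -0.05, 0.03 and 0.31 in infarcted hearts, against 6.04, 6.88, 1.79 and 5.77 in sham hearts. Its groups were separate, at -4.95 ± 0.91 (adjusted p = 0.0504 from limma) and at -4.62 after quantile normalisation (adjusted p = 0.0847 from limma). Under the deposited scaling 14 of the 27 genes had separate groups with infarcted hearts lower, against 6.27% of all features. Ndufa9 alone had separate groups with infarcted hearts higher, against 2.62% of all features. It was the 1 gene with a positive difference, at 2.22 ± 0.98 (adjusted p = 0.399 from limma). Its values were 2.22, 1.59, 4.2 and 1.62 in infarcted hearts, against -3.0, 1.41, 1.16 and 1.18 in sham hearts. Infarcted replicate 3 and sham replicate 1 stood apart from the rest. An unadjusted p under 0.05 from limma came from 17 genes, Ndufa9 among them, against 12.3% of all features. Cox4i1 and Atp5b, with values on 1 and 0 sham arrays, were not tested. Each of the 3 called genes kept its call in 1 of the 8 fits that left out 1 array, with adjusted p from limma of up to 0.127, 0.136 and 0.147 in the others. The difference between the lists was not tested.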

How the data were processed

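The deposited table holds log2 values of 33600 spots on 8 arrays, 1 per heart. A ratio of heart to pool RNA had been assumed when the tests were chosen. However, within all 384 combinations of array and block (48 blocks of 700 spots), 2 to the power of the deposited log2 values became whole numbers, within 0.001, after multiplication by 1 constant, with signals of 42 to 65466. The values are therefore the authors' signal of 1 channel over the block median, and neither the channel nor a background correction is stated. The limma test was kept for these values.

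Of 33600 probes, 18179 had 1 symbol in the platform annotation, 87 had several and 15334 were unnamed. Arrays were centred on their medians, probes of a gene averaged per array, and 18044 features with at least 3 values per group fitted with limma 3.58.1 (R 4.3.3, lmFit and eBayes, no covariate, Benjamini-Hochberg adjustment). The number of arrays limits the precision. The procedure was tested on simulated data. This gene family was picked for study, and the related lists were drawn up, with earlier results of these data known, although which genes belong to the family follows from the symbol alone.

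Values on every array are given for called genes, the 8 lowest and 5 highest differences, up to 3 of the brightest genes of each role group, genes whose probes differ in sign and genes measured mainly in 1 group. Of each related list, called genes and the 2 with the smallest p are named. Cox5a, Ndufa9, Cox4i1, Atp5b, Fcgr1, Col1a1 and Postn are also named, after their values were seen. Mrpl1, Mrpl18, Mrpl21, Mrpl28, Mrpl34, Mrpl36, Mrpl44 and Mrpl45 are named for separate groups, missing probes or slide position, after their values were seen. Alternatives were quantile and cyclic loess normalisation, no centring, spot position and local spot trend removed, single probes, other filters and variance settings, a replicate block and leaving out arrays. A paired design is not stated in the labels.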

Additional observations from a re-analysis of the deposited data

Results flagged for a closer look

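All 133 sets of 4 arrays, of 1 tested gene in 1 group, were checked for an array far from the rest. In 14 sets its gap to the nearest value, as a share of the whole range, was above Dixon's 95% critical value, which chance gives in about 1 of 20 sets.

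For genes averaged over several probes, the sham value of Mrpl33 was 4.40 on replicate 4, with the other sham hearts at 0.80 to 1.39, where its dim probe gave no value. Mrpl44 was at 2.60 on infarcted replicate 1, with the other infarcted hearts at -0.16 to 0.19, and at 2.53 on sham replicate 2, with the other sham hearts at 0.08 to 0.42. Its dim probe gave no value on either of those arrays.

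Among infarcted hearts, replicate 3 was at 4.31 for Mrps21, with the others at 3.64 to 3.72, and at 2.52 for Mrpl28, with the others at 3.15 to 3.25. Replicate 4 was at 0.91 for Mrps17, with the others at 2.02 to 2.17.

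Among sham hearts, replicate 2 was at 4.83 for Mrpl30, with the others at 3.99 to 4.12. It was at 2.25 for Mrpl11 (others 2.78 to 2.86), 1.01 for Mrpl19 (others 0.72 to 0.74) and 2.63 for Mrpl21 (others 2.45 to 2.48). Replicate 3 was at -1.57 for Mrps7 (others 2.43 to 3.11) and 2.62 for Mrpl48 (others 2.34 to 2.37). Replicate 4 was at 2.30 for Mrps18c, with the others at 2.81 to 2.86. Replicate 1 was at 1.55 for Mrpl54, with the others at 3.00 to 3.29, and this spot lies in the stretch of the slide where replicate 1 was dim in both groups.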

How the results depend on the processing

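The count of genes called higher was 0 under every alternative run. The count called lower was 1, Mrpl2, except that it was 0 with values required on all 8 arrays or with the replicate block, and 0 to 1 when 1 array was left out. It was 0 without infarcted replicate 1, 2 or 3, where Mrpl2 no longer had 3 values. With 2 values allowed, a setting chosen after seeing the data, its difference was -3.18, -3.01 and -3.36, with adjusted p from limma of 0.0577, 0.0576 and 0.0568. Where it was tested without 1 array, it was -3.35 to -2.96. The deviations of samples with the same replicate number, 1 to 4, correlated at 0.022, 0.311, -0.077 and -0.193 over 15219 features. Only that of replicate 2 was above 0.1, and the numbers were not taken to pair the samples. Both replicate 1 arrays were dim in part of blocks 45 to 48, which a correlation over all features may not show. Whether arrays with the same number were handled together was not tested. With the replicate block the difference of Mrpl2 was -3.35, with an adjusted p from limma of 0.136, and 1 of 17821 features was called. Over all features, calls numbered 99, against 32 with quantile normalisation, 72 with loess, 43 with spot position removed, 226 with the local trend removed, 157 for single probes, 1120 without sham replicates 2 and 4, and 3 to 615 when 1 array was left out.

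The median difference of the family was 0.07 with quantile normalisation and 0.06 with loess, and -0.23 to -0.08 when 1 array was left out. Of the genes below, whose sign changed, none was called under any alternative run, and the cause was not tested. With quantile normalisation the differences were 0.19 for Mrpl14, 0.39 for Mrpl30, 0.20 for Mrpl54, 0.17 for Mrps18a, 0.02 for Mrpl52, 0.11 for Mrps36, 0.19 for Mrps24, 0.08 for Mrps34, 0.01 for Mrps23, 0.09 for Mrpl4, 0.11 for Mrpl58 and 0.07 for Mrps18b. With loess they were 0.00 for Mrps21, 0.22 for Mrpl14, 0.38 for Mrpl30, 0.25 for Mrpl54, 0.20 for Mrps18a, 0.09 for Mrpl52, 0.13 for Mrps36, 0.21 for Mrps24, 0.08 for Mrps34, 0.08 for Mrps23, 0.11 for Mrpl4, 0.09 for Mrpl58 and 0.03 for Mrps18b. With spot position removed they were 0.04 for Mrpl54, 0.02 for Mrpl4, 0.04 for Mrpl58 and 0.06 for Mrps18b. With the local trend removed, chosen after seeing the data, they were 0.06 for Mrps18a, 0.16 for Mrpl4, 0.02 for Mrpl58 and 0.15 for Mrps18b. Without sham replicates 2 and 4, which had the fewest values, also chosen after seeing the data, they were -0.02 for Mrpl24, -0.03 for Mrps30, 0.01 for Mrpl30 and 0.35 for Mrpl54. With 1 probe in place of the mean, they were -0.05 for Mrpl38 and 0.14 for Mrps18b. When 1 array was left out, differences were -0.25 to 0.03 for Mrpl30, -1.12 to 0.08 for Mrpl33, -0.11 to 0.38 for Mrpl38, -0.18 to 0.11 for Mrpl4, -0.42 to 0.25 for Mrpl54, -0.15 to 0.05 for Mrpl58, -0.24 to 0.04 for Mrps18a, -0.25 to 0.07 for Mrps18b, -0.42 to 0.02 for Mrps34 and -0.30 to 1.26 for Mrps7.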
